A study of Mus musculus with 2 samples.

Results

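Zinc finger genes that carry a number in the mouse symbol Zfp form a large family, and 188 of them could be read on every array of a comparison between RNA bound by an antibody against FLAG-tagged Nanos2 and RNA of the starting tissue. The members are the genes whose symbol in the series table is Zfp followed by digits alone, with Zfp36 and Zfp42 left out, and with at least 1 probe marked by the scanner software as well above background on all 4 arrays. The array named 236 such genes, so the 188 are those that were detected throughout. The members were thus chosen by detection marks from the same arrays that give the fold changes, so the counts below are a description and no test of the group was made.

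Male gonads were taken from MCH mice at embryonic day 14.5. All animals of both groups carried the transgene Tg-Nanos2 enhancer-3xFLAG-Nanos2-3'UTR, in which the enhancer of Nanos2 drives a FLAG-tagged copy of the gene. The FLAG IP group is RNA recovered with Anti-FLAG M2-Agarose and the input group is RNA not put through an antibody. Each group had 2 one-colour Agilent arrays, biological duplicates by the series text, and this small number limits the precision of every value. Control precipitates (animals lacking the transgene, or another antibody) were not analysed here, so RNA recovered without the tagged protein was not measured.

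Nanos2 is an RNA-binding protein of male germ cells that joins the machinery that shortens poly(A) tails and is needed for the male germ cell fate. Most numbered Zfp genes encode DNA-binding proteins with tandem Cys2His2 zinc fingers. Many of them also carry a KRAB domain, which recruits the corepressor TRIM28 and, through it, the histone H3 lysine 9 methyltransferase SETDB1, and this system silences retrotransposons and holds imprints in the early embryo and the germ line. The number in a Zfp symbol says nothing of function, and several members are unrelated proteins that were named for a single finger-like motif.

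The FLAG IP arrays were dimmer than the input arrays, with a 75th percentile of the processed signal of 55.7 and 608 intensity units on the FLAG IP arrays, against 1026 and 1038 on the input arrays. FLAG IP replicate 1 had 42.7% of its spots well above background, and the other arrays had 65.4% to 70.2%. Each signal was therefore divided by the 75th percentile of its own array, and levels are given as multiples of that percentile. A level compares the same probe between arrays, not different genes. Nanos2 itself read 1.48 and 1.22 in the FLAG IP against 0.398 and 0.337 in the input, a log2 fold change of 1.88 ± 0.20 (SE, n = 2 per group, limma adjusted p = 0.00477). Markers of other gonad cells moved with the groups: 10 of 10 Sertoli cell markers were lower in the FLAG IP (median log2 fold change -2.05), as were 6 of 6 Leydig cell markers (-2.52). Of 10 germ cell markers 4 were higher, 1 was lower and 5 did not pass (median 0.37). Over all genes tested 28.0% were higher and 25.4% lower. Of the germ cell markers that did not pass, Pou5f1 lay near 0 (log2 fold change -0.01). Both groups came from transgenic gonads of the same age, so these differences are between RNA recovered with the antibody and input RNA. They do not count cells. The part of cell types in the fold changes of the zinc finger genes was not tested.

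Zinc finger transcripts were more often higher than lower in the FLAG IP. Of the 188 genes, 85 were higher (45.2%), 22 were lower (11.7%) and 81 did not pass the threshold of 0.05 (limma, two-sided, Benjamini-Hochberg adjusted over 15260 genes). In the same fit 28.0% of all tested genes were higher and 25.4% were lower. Among the 11453 genes with a probe well above background on all 4 arrays, the set that met the same detection rule, 32.7% were higher and 25.7% were lower. The difference between these shares was not tested.

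The median and both quartiles of the zinc finger genes lay above those of all detected genes. Their median log2 fold change was 0.73, a 1.65-fold higher level in the FLAG IP, with quartiles of -0.17 and 1.501. Over all genes detected on the 4 arrays the median was 0.19, with quartiles of -0.82 and 1.10. The fold changes of the members ran from -2.29 to 2.89, with 130 above 0 and 58 below. At least 2-fold differences among the called genes were found for 72 higher and 17 lower members, and at least 4-fold ones for 19 and 2. The shares over all genes at these fold limits are not given, so no tilt is read from these counts.

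**Figure D1:**
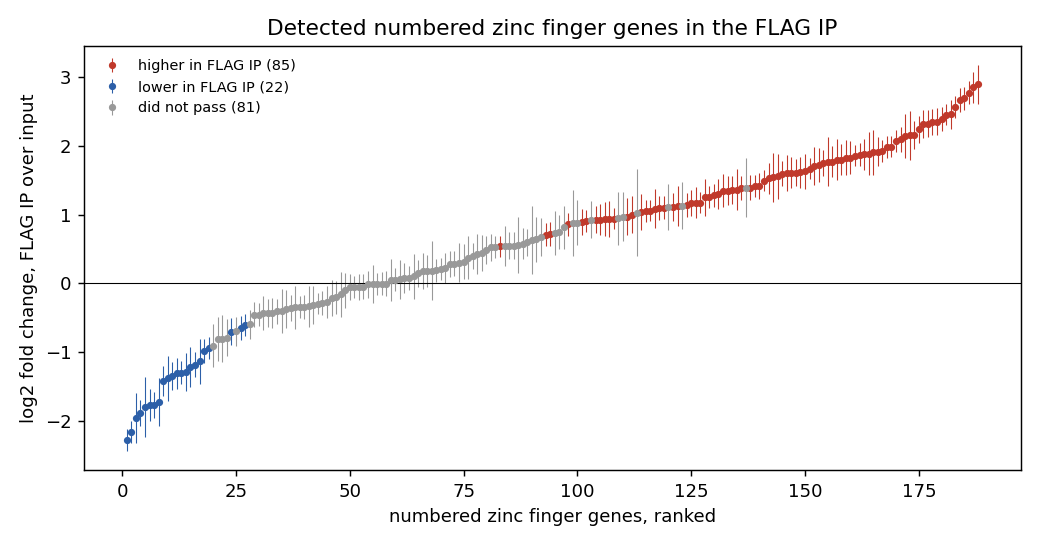
Log2 fold change of FLAG IP over input (vertical axis) for the 188 detected numbered zinc finger genes, ranked from lowest to highest, with bars of 1 SE from the limma fit over 2 arrays per group. The 85 genes higher in the FLAG IP fill the right of the plot and reach 2.89, and the 22 lower genes lie at the left and reach -2.29.

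The ranked plot shows a continuous series with no gap between called and uncalled genes. The uncalled 81 spread from -0.91 to 1.39, and 52 of them lay within 0.5 of 0. Separation of the arrays was common: both FLAG IP arrays were on one side of both input arrays for 155 members (82.4%), against 80.2% of all tested genes and 84.9% of genes detected on all 4 arrays. The share of separated members is thus close to the background.

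**Figure D2:**
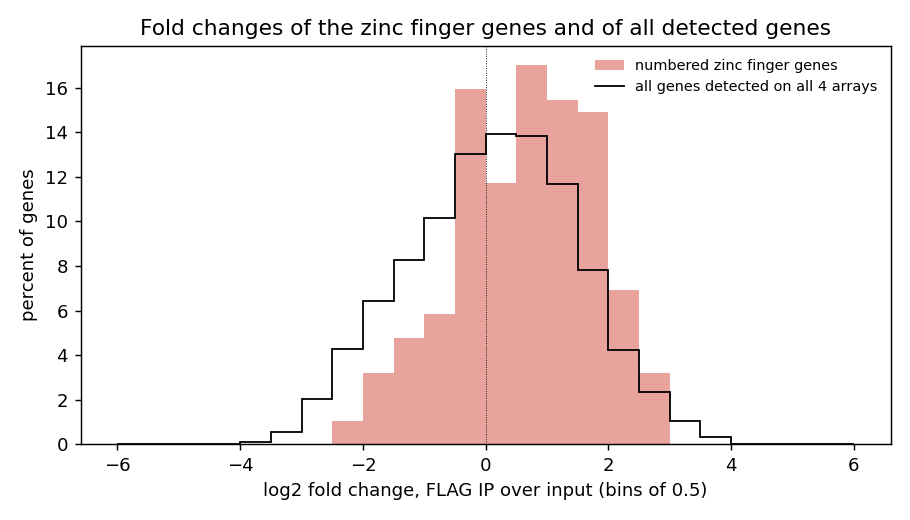
Percent of genes (vertical axis) in bins of 0.5 of the log2 fold change of FLAG IP over input, for the 188 numbered zinc finger genes (filled) and for all 11453 genes detected on all 4 arrays (line). The zinc finger genes are fewer below -0.5 and more frequent from 0.5 to 2.5, with medians of 0.73 for the zinc finger genes and 0.19 for all detected genes.

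The histogram shows that the largest fold changes on the array, on either side, do not belong to the zinc finger genes, whose values end inside the range of the line. The FLAG IP arrays were less alike than the input arrays. The median SD of the members was 0.29 on the log2 scale between FLAG IP arrays and 0.05 between input arrays, and over all detected genes these SDs were 0.27 and 0.05. Across members the correlation between arrays was 0.959 in the FLAG IP and 0.998 in the input.

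Members with dim and with bright probes in the input were both among the higher ones. Of the 63 members with the dimmest input signal (0.0527 to 0.696), 36 were higher and 5 were lower, with a median log2 fold change of 1.06. In the middle 62, 26 were higher, 7 were lower and the median was 0.66. Among the 63 with the brightest input signal (2.40 to 33.9), 23 were higher, 10 were lower and the median was 0.43. Across members the correlation of fold change with log2 input level was -0.27 (Pearson) and -0.25 (Spearman), and across all genes detected on the 4 arrays it was -0.51 and -0.48. The input level is part of the fold change, so the variables share an error, and genes on the same arrays are not independent. The detection rule also acts here. On FLAG IP replicate 1 the lowest log2 level marked well above background was -2.77. Members dimmer than that in the input could enter only by reading higher on that array. The part of the rule in the counts of the dimmest members was not tested. No share over all genes at these input levels is given, so no trend particular to the members is read from these counts.

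The counts depended on the arrays and on the background correction. Fits with 1 array left out are compared here by the median log2 fold change. Without FLAG IP replicate 1 the median was 0.67 for the members and 0.15 for all genes detected on the 4 arrays. Without FLAG IP replicate 2 these medians were 0.73 and 0.21. In these fits the lone FLAG IP array is assumed to vary like the input arrays. The median SD of the members was 0.29 between FLAG IP arrays and 0.05 between input arrays, so larger counts of called genes there are no sign of stability. Input replicate 1 sat on a slide of its own, and without it the medians were 0.77 and 0.20. Slide as a block gave the same medians because only arrays of the other slide then inform the contrast. Without input replicate 2 the medians were 0.68 and 0.18, with the spread then taken from the FLAG IP arrays alone. With normexp background correction 35 members were higher and 6 lower, and 8.36% of all genes were then higher and 9.19% lower. No member called in the main analysis was called with the opposite direction under any of the 13 other settings of the gene-level fit. With normexp, as in the main analysis, higher members outnumbered lower ones.

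The 12 members with the largest ratios were above both input arrays on both FLAG IP arrays. Zfp82 led the list, with 8.71 and 5.50 in the FLAG IP against 0.903 and 0.962 in the input, a log2 fold change of 2.89 ± 0.28 (7.43-fold, adjusted p = 0.00418). Zfp750, whose human counterpart drives the terminal differentiation of epidermal cells, had 0.540 and 0.395 in the FLAG IP against 0.0680 and 0.0604 in the input (2.85 ± 0.23). Both genes were several-fold higher on each FLAG IP array than on either input array. The mean log2 level of Zfp750 in the input was -3.96. The lowest level marked well above background on FLAG IP replicate 1 was -2.77. Zfp750 could thus be a member only by reading higher on that array.

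Zfp248 measured 2.41 and 2.73 in the FLAG IP against 0.365 and 0.387 in the input (log2 fold change 2.77 ± 0.17). Zfp1 measured 3.29 and 3.66 in the FLAG IP and 0.518 and 0.557 in the input (2.69 ± 0.17). For Zfp418 the levels were 1.44 and 1.24 in the FLAG IP against 0.204 and 0.217 in the input (2.67 ± 0.17). In these 3 genes the replicates of a group lay close together and far from the other group.

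Several of the strongest members have known functions. Zfp281, a repressor in the network that governs the exit of embryonic stem cells from pluripotency, read 14.3 and 13.9 in the FLAG IP against 2.43 and 2.34 in the input (log2 fold change 2.56 ± 0.16). Zfp143 encodes an activator of small nuclear RNA gene promoters that also binds at chromatin loop anchors, and it read 4.83 and 4.73 in the FLAG IP against 0.848 and 0.897 in the input (2.45 ± 0.16). Both had FLAG IP replicates nearly equal to each other. Zfp37, which is known for expression in the adult testis, read 3.01 and 2.33 in the FLAG IP against 0.463 and 0.502 in the input (2.46 ± 0.21).

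Zfp131, a factor with a BTB domain, had 24.6 and 19.4 in the FLAG IP against 4.501 and 4.09 in the input (log2 fold change 2.35 ± 0.20). Zfp51 had 6.47 and 5.99 in the FLAG IP against 1.10 and 1.28 in the input (2.39 ± 0.18). Zfp438 had 1.20 and 1.30 in the FLAG IP against 0.222 and 0.272 in the input (2.34 ± 0.19). Zfp770 completed the 12 with 8.23 and 6.50 in the FLAG IP against 1.47 and 1.45 in the input (2.32 ± 0.20). All 12 had adjusted p-values between 0.00380 and 0.00418, and 11 of the 12 kept their call in all 13 other settings; Zfp1 had an adjusted p of 0.0501 with normexp. Beyond these 12, the other 73 higher members were 1.45-fold to 4.98-fold higher.

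**Figure D3:**
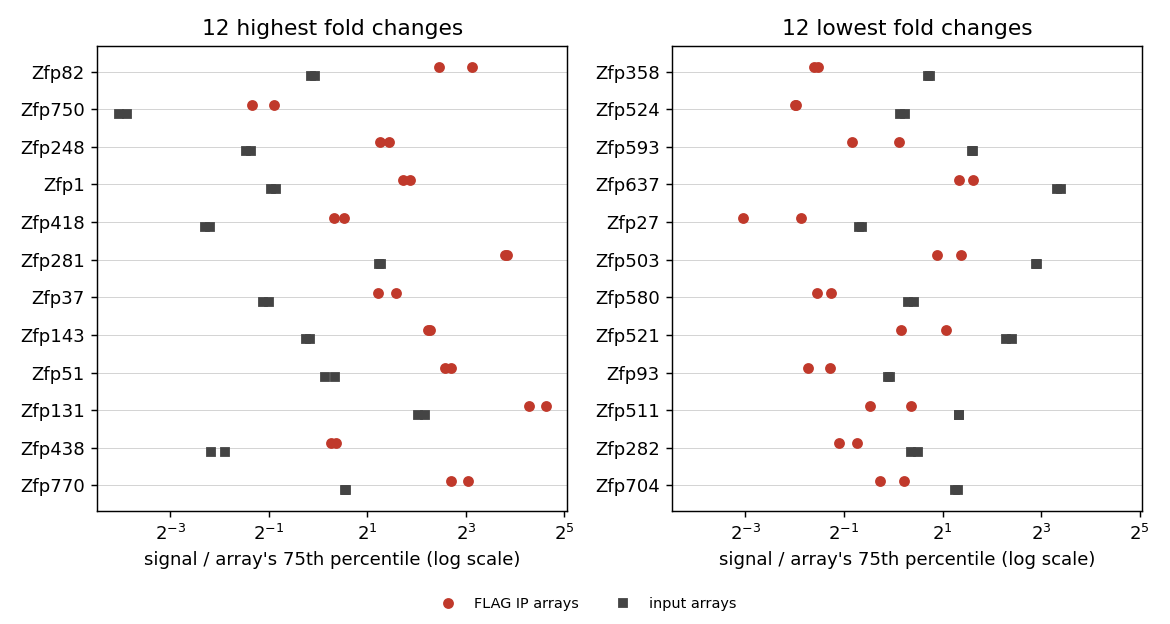
Signal on each array as a multiple of the 75th percentile of that array (horizontal log axis) for the 12 members with the highest (left) and the 12 with the lowest (right) fold changes, with circles for the 2 FLAG IP arrays and squares for the 2 input arrays. In every row both circles lie on the same side of both squares, which the choice of members required. The circles are farther apart than the squares in most rows.

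The plot of single arrays shows how little the input replicates differed beside the FLAG IP replicates. Zfp358 had the lowest ratio, with 0.348 and 0.330 in the FLAG IP against 1.67 and 1.63 in the input (log2 fold change -2.29 ± 0.16, 4.87-fold lower, adjusted p = 0.00380). Zfp524 had 0.253 and 0.252 in the FLAG IP against 1.18 and 1.10 in the input (-2.17 ± 0.16). These were the only 2 members at least 4-fold lower.

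Zfp637 had 3.08 and 2.52 in the FLAG IP against 10.6 and 9.95 in the input (log2 fold change -1.89 ± 0.19, adjusted p = 0.00429). Zfp593, whose yeast homologue takes part in the export of the large ribosomal subunit, had 1.08 and 0.561 in the FLAG IP against 3.07 and 3.01 in the input (-1.96 ± 0.37, adjusted p = 0.0154). Its FLAG IP arrays were apart from each other, and both lay below the input. Zfp580 had 0.416 and 0.340 in the FLAG IP against 1.33 and 1.24 in the input (-1.77 ± 0.19).

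Some regulators of development were also in this group. Zfp503, a corepressor active in the embryonic striatum and limb, read 2.60 and 1.86 in the FLAG IP against 7.57 and 7.45 in the input (log2 fold change -1.77 ± 0.23, adjusted p = 0.00669). Zfp521, a multi-finger regulator of blood and neural progenitors, read 1.11 and 2.09 in the FLAG IP against 5.28 and 4.86 in the input (-1.73 ± 0.35, adjusted p = 0.0195). The FLAG IP arrays of Zfp521 were farther apart than those of Zfp503. Zfp27 read 0.120 and 0.271 in the FLAG IP against 0.643 and 0.619 in the input (-1.81 ± 0.44, adjusted p = 0.0307) with a probe above background on 3 arrays, and its second probe, above background on all 4, gave -1.47 ± 0.16.

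The last 4 of the 12 lowest members were Zfp93 (log2 fold change -1.42 ± 0.22), Zfp511 (-1.39 ± 0.33), Zfp282 (-1.35 ± 0.20) and Zfp704 (-1.31 ± 0.23), all with adjusted p-values of 0.00929 to 0.0293. The other 10 lower members were 1.53-fold to 2.47-fold lower. With normexp 9 of the 12 no longer passed (all but Zfp637, Zfp503 and Zfp704, adjusted p of 0.0543 to 0.237). Zfp704, Zfp282, Zfp511, Zfp93, Zfp521 and Zfp27 no longer passed without input replicate 1 (0.0706 to 0.114) or without input replicate 2 (0.0557 to 0.108). Without the filter on dim probes Zfp511, Zfp521 and Zfp27 no longer passed (0.0567 to 0.0791). All 12 kept a negative fold change in those settings.

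Of 28 members with a described role, 9 were higher (32.1%), 3 were lower (10.7%) and 16 did not pass, with a median log2 fold change of 0.46. The share of higher genes is near the 32.7% of all genes detected on the 4 arrays, of which 25.7% were lower. Besides Zfp281, Zfp143, Zfp131 and Zfp37, the higher ones were Zfp451, a SUMO ligase, with 8.61 and 8.84 in the FLAG IP against 2.39 and 2.42 in the input (1.86 ± 0.15), Zfp318, which B cells need to make IgD (1.52 ± 0.22), Zfp292 (1.41 ± 0.19), Zfp706, a regulator of embryonic stem cell self-renewal (0.93 ± 0.25), and Zfp148, a close relative of Zfp281 (0.91 ± 0.16). The last 4 of these lost their call with normexp and without either input array, and Zfp451 lost it with normexp and with the mean of its probes.

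Zfp809, a KRAB protein that brings TRIM28 to the primer binding site of murine retroviruses, was lower, with 0.260 and 0.310 in the FLAG IP against 0.580 and 0.546 in the input (log2 fold change -0.99 ± 0.18, adjusted p = 0.0145). It did not pass with normexp or without either input array. Zfp445, which helps to maintain imprints, had 0.169 and 0.251 in the FLAG IP against 0.315 and 0.219 in the input (-0.35 ± 0.31, adjusted p = 0.397), with a probe above background on 3 arrays. The probe that was above background on all 4 arrays gave 0.37 ± 0.21, so the sign differed between probes and neither passed.

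Other members with housekeeping or signalling roles lay near 0 or did not pass. Zfp207, a kinetochore protein that binds microtubules, had 20.9 and 12.8 in the FLAG IP against 11.9 and 12.4 in the input (log2 fold change 0.43 ± 0.29). Zfp622, whose yeast homologue is an assembly factor of the large ribosomal subunit, was nearest to 0, with 3.55 and 4.37 in the FLAG IP against 4.05 and 3.86 in the input (adjusted p = 0.985). Zfp598, the ubiquitin ligase that marks collided ribosomes, gave 0.64 ± 0.33 and Zfp326, a factor that links transcription to splicing, gave -0.43 ± 0.20. Zfp462 (-0.01 ± 0.16), Zfp335 (-0.05 ± 0.18) and Zfp219 (0.07 ± 0.22) did not pass either.

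Zfp57, the KRAB protein that guards imprints, and Zfp423, a multi-finger relative of Zfp521, are not among the 188 because FLAG IP replicate 1 was not well above background. Zfp57 had 0.0447 and 0.0258 in the FLAG IP against 0.0893 and 0.0874 in the input (log2 fold change -1.38 ± 0.32, adjusted p = 0.0266), but 0.67 with normexp. Zfp423 had 0.145 and 0.170 in the FLAG IP against 0.796 and 0.891 in the input (-2.42 ± 0.18, adjusted p = 0.00380), and did not pass with normexp.

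KRAB zinc finger proteins work with a corepressor and with enzymes of histone H3 lysine 9 methylation. Of 26 tested genes of these, 10 were higher (38.5%), 6 were lower (23.1%) and 10 did not pass, with a median log2 fold change of -0.05. Over all genes tested 28.0% were higher and 25.4% lower, and over genes detected on all 4 arrays 32.7% and 25.7%, so nothing particular to this list is read from its counts. Trim28, the corepressor itself, was lower, with 8.43 and 11.6 in the FLAG IP against 20.3 and 21.3 in the input (-1.07 ± 0.22, adjusted p = 0.0202). Setdb1, the methyltransferase it recruits, had 3.03 and 4.18 in the FLAG IP against 2.21 and 2.20 in the input (0.69 ± 0.22, adjusted p = 0.0639).

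The partners of SETDB1 were among the highest of this list. Atf7ip2 had 2.41 and 2.53 in the FLAG IP against 0.202 and 0.212 in the input (log2 fold change 3.58 ± 0.16, 11.9-fold), and its relative Atf7ip, which stabilises SETDB1, had 10.1 and 11.4 in the FLAG IP against 3.15 and 3.19 in the input (1.75 ± 0.17). Suv39h2, a methyltransferase known from the testis, gave 2.77 ± 0.30, and Morc3, a chromatin ATPase, gave 1.99 ± 0.21. Daxx (1.65), Hdac1 (1.44), Suv39h1 (1.41), Smarcad1 (1.41), Cbx3 (0.91) and Ehmt1 (0.84) were also higher.

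The other 5 lower genes of this list were Hdac2 (log2 fold change -1.25), Mbd3 (-1.05), Atrx (-0.85, above background on 3 arrays), Mta2 (-0.79) and Chd3 (-0.71). Trim28 did not pass with normexp, with quantile normalization, without the filter on dim probes or without either input array, and kept a negative value in each. Without input replicate 1, or without input replicate 2, 4 genes of the list were higher and 0 were lower in limma, with 1 lower at an unadjusted p under 0.05 without input replicate 1 and 0 without input replicate 2. With quantile normalization 11 were higher, 3 were lower and the median was 0.35.

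**Figure D4:**
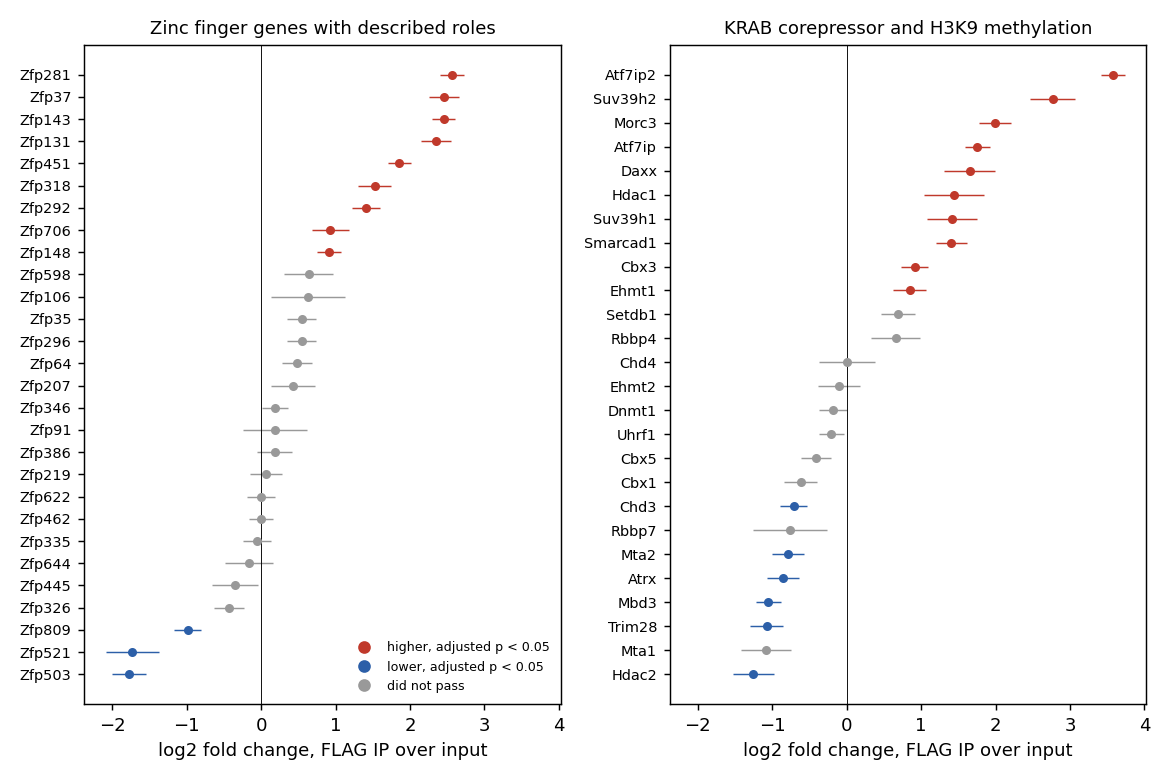
Log2 fold change of FLAG IP over input (horizontal axis, bars of 1 SE from limma, 2 arrays per group) for the 28 members with a described role (left) and the 26 tested genes of the KRAB corepressor and H3K9 methylation (right), coloured by call. The members run from Zfp281 at 2.56 to Zfp503 at -1.77, and the corepressor genes from Atf7ip2 at 3.58 to Hdac2 at -1.25.

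The plot by role shows both lists spread across 0, with called genes at either end. Of the 188 symbols on the array, 21 have since been replaced, and some of the present names tell what the proteins do. Among the 21, 11 were higher, 1 was lower and 9 did not pass. Over all genes tested 28.0% were higher and 25.4% lower, and over genes detected on all 4 arrays 32.7% and 25.7%. The renamed members were picked after their values were seen, so nothing particular to them is read from the counts. Zfp313, now Rnf114, a RING ubiquitin ligase, had 84.5 and 81.2 in the FLAG IP against 26.0 and 26.1 in the input (log2 fold change 1.67 ± 0.16, adjusted p = 0.00403). It did not pass with normexp or without input replicate 1.

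Of the other members that are ubiquitin ligases, Zfp650, now Ubr3, was higher (log2 fold change 0.93, adjusted p = 0.0441). Zfp364, now Rnf115, gave 0.92 with an adjusted p of 0.0503, and Zfp294, now Ltn1, the ligase of stalled ribosomes, gave -0.34 and did not pass. Members with BTB domains included Zfp238, now Zbtb18, with 8.70 and 6.65 in the FLAG IP against 1.46 and 1.60 in the input (2.32 ± 0.21), Zfp509, now Zbtb49 (1.80), and Zfp295, now Zbtb21 (1.73), all higher. Zfp161, now Zbtb14, gave 0.87 and did not pass.

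Zfp508, now Adnp2, a homeobox protein (log2 fold change 1.89), Zfp96, now Zscan12 (1.98), Zfp533, now Zfp385b (1.63), Zfp385, now Zfp385a (1.25), Zfp119, now Zfp119a (1.14), and Zfp291, now Scaper (0.97), were higher too. In the input Zfp295, Zfp533 and Zfp119 lay below the lowest level marked well above background on FLAG IP replicate 1. These 3 could be members only by reading higher on that array. Zfp289, now Arfgap2, a GTPase activator of Golgi vesicle coats, was the single lower one, with 1.55 and 1.38 in the FLAG IP against 3.54 and 3.68 in the input (-1.30 ± 0.17, adjusted p = 0.00648). Zfp259, now Zpr1, Zfp191, now Zfp24, Zfp469, now Tnrc18, Zfp75, now Zfp317, Zfp192, now Zkscan8, and Zfp518, now Zfp518a, did not pass.

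The 6 members with the brightest probes in the input, an order that reflects the probe as well as the transcript, did not share a direction. Zfp428 had 29.4 and 21.5 in the FLAG IP against 33.4 and 34.4 in the input (log2 fold change -0.43 ± 0.22, adjusted p = 0.172). Next came Zfp313, described above, and Zfp207. Zfp771 had 6.94 and 3.92 in the FLAG IP against 11.8 and 11.2 in the input (-1.14 ± 0.33, adjusted p = 0.0469), a call that was lost with quantile normalization, without the filter on dim probes and without either input array. Zfp219 had 12.7 and 9.37 in the FLAG IP against 10.3 and 10.5 in the input, so that its groups overlapped. Zfp637, the sixth, was lower.

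In a few members the FLAG IP arrays disagreed. The FLAG IP arrays were over 2-fold apart in 7 members, and the input arrays in 0. The share over all genes is not given. Zfp106, an RNA-binding protein of motor neurons and muscle, had 2.92 and 7.48 in the FLAG IP against 2.94 and 3.11 in the input (log2 fold change 0.63 ± 0.50). Zfp91, a ubiquitin ligase, had 2.82 and 6.23 in the FLAG IP against 3.72 and 3.66 in the input, so that 1 FLAG IP array was below the input and the other above it. Zfp189, Zfp518, Zfp161 and Zfp236 did not pass either, while Zfp27 was lower on both arrays.

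Several probes for 1 gene gave a second reading on the same RNA. The array carried 381 probes for the members, of which 335 were tested one by one, with adjustment over all probes, and 134 were higher and 31 lower. The share called over all probes is not given, so no tilt is read from these counts. Of 101 members with more than 1 tested probe, 24 had all tested probes higher, 5 had all lower and 41 had no called probe, while 30 had called and uncalled probes, and 1 had probes called in opposite directions. That gene was Zfp87, with 1.77 ± 0.23 on the log2 scale for its bright probe (adjusted p = 0.00866) and -1.09 ± 0.17 for a dim one above background on 3 arrays (adjusted p = 0.0127).

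**Figure D5:**
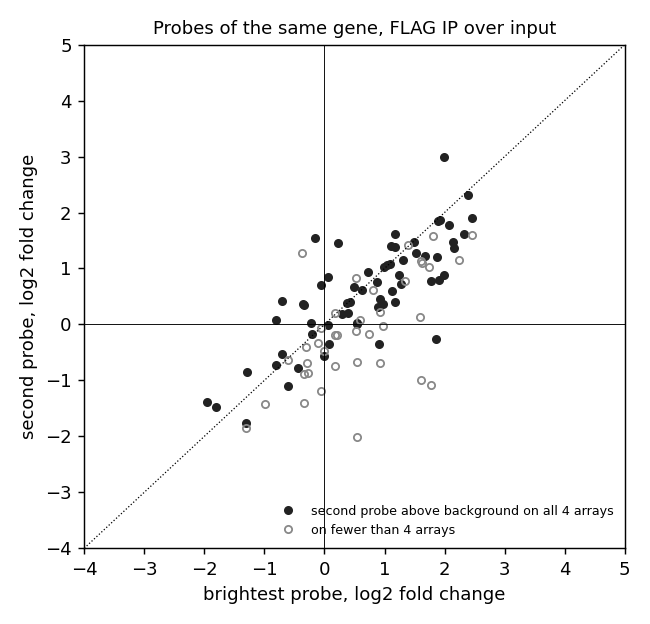
Log2 fold change of FLAG IP over input for the brightest probe of a gene (horizontal axis) and for its second probe (vertical axis), for the 101 members with more than 1 tested probe. Filled points have a second probe above background on all 4 arrays and open points on fewer, most points lie near the dotted line of equal values, and 78 of 101 pairs have the same sign.

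The plot of probe pairs shows most points below the line, both among the open points, with dim second probes, and among the filled ones. Over all 101 pairs the Pearson correlation across genes was 0.71 and the median difference was 0.52 on the log2 scale, and over the 61 pairs with both probes above background on all 4 arrays these values were 0.78 and 0.45, with 51 of the same sign. For Zfp644 the brightest probe gave -0.16 ± 0.33 and the other 2 gave 1.54 ± 0.17 and 1.18 ± 0.16, so the gene did not pass by its brightest probe but was higher with the mean of its probes (0.86, adjusted p = 0.0162). Zfp318 was higher on all 4 of its probes, at 1.17 to 1.52. Zfp451 and Zfp148 were each higher on 1 of 4 probes only. Zinc finger genes arose by repeated duplication and their finger repeats are alike, so reads of near copies on the array are uncertain, and cross-hybridisation was not tested.

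Many zinc finger genes lie in clusters, and the order of the members along the chromosomes was set beside their fold changes. In the gene order of the RefSeq table of assembly GRCm38.p6, 27 pairs of members were next to each other, made up of 46 genes. Both genes were higher in 6 pairs, both lower in 0, and in 1 pair they were called in opposite directions: Zfp282 (log2 fold change -1.35) and Zfp212 (1.83). Of all members 45.2% were higher and 11.7% lower, and some pairs share a gene. Nothing particular to neighbours is read from these counts. The median difference within pairs was 1.28 on the log2 scale, and over all pairs of members it was 1.12. The runs of 3 neighbours with all genes higher were Zfp51, Zfp53 and Zfp52 (2.39, 1.17 and 1.49), and Zfp14, Zfp82 and Zfp566 (1.36, 2.89 and 0.54).

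The detection rule itself turned on FLAG IP replicate 1, the dimmest array. Of the 48 numbered genes outside the rule, 36 were above background on the other 3 arrays and missed only that one, and 4 were above background on none. Just inside the rule, the probes of Zfp27, Zfp146 and Zfp445 had signals of 8.45, 10.4 and 10.6 intensity units on that array. Just outside it, Zfp94, Zfp459 and Zfp652 had 12.8, 12.02 and 11.4. The signals inside and outside the rule overlapped, and the mark sets each spot against its own background.

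The genes outside the rule had about as many higher as lower calls. Of the 38 genes outside the rule that could be tested, 7 were higher and 9 were lower, with a median log2 fold change of -0.19. Taking the tested numbered genes together, 92 of 226 were higher and 31 lower, with a median of 0.56, against 28.0% higher and 25.4% lower over all genes. Zfp558 was the highest called gene outside the rule (2.11 ± 0.37) and Zfp423 the lowest.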

How the data were processed

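RNA of FLAG immunoprecipitates and input RNA from embryonic male gonads was hybridised to 2 one-colour arrays per group. Per the file headers, the deposited scanner files hold a background-subtracted processed signal per spot (linear intensity). The submitters' processing notes name Agilent Feature Extraction 9.5. A series table deposited by the authors holds, per probe, a symbol, a raw intensity for each group, the ratio between the groups and a p-value. Its symbols defined the family, the deposited ratio served as a comparison, and the deposited p-value stayed out of every result. No per-sample column was left unused (0). The array headers and the RefSeq table name different builds, so no coordinates are given.

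Values were log2 of the processed signal over the 75th percentile of the non-control spots. Outlier spots were left out and spots of 1 probe were averaged. Probes had to be well above background on both FLAG IP arrays or both input arrays, and the brightest probe stood for a gene. Of 41174 probes, 31004 were named by gene ID through RefSeq (GRCm38.p6), 309 by an older symbol, 155 by symbol and 1108 by the name on the array, which left 8598 unnamed. R 4.3.3 and limma 3.58.1 fitted the comparison over 15260 genes by lmFit and eBayes, two-sided and without a block, with Benjamini-Hochberg adjustment and 2 residual degrees of freedom. The p-values measure the spread between these arrays. Deviations of arrays of the same number correlated at 0.05. With 2 arrays per group this cannot show whether arrays of the same number share a sample, and the main fit used no pairing. The steps were tested on simulated data.

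The members and gene lists were chosen with earlier results of these data known. The named genes are the 12 highest and 12 lowest members whose groups did not overlap, the 6 brightest in the input, the one nearest 0, members whose probes disagreed, those with described roles, those at the edge of the detection rule, and genes of the KRAB corepressor. Renamed, neighbouring and replicate-discordant members were added after their values were seen. Alternatives were normexp on the median signal (offset 50), quantile normalization, median centring, other filters, the mean of a gene's probes, single probes, trend and robust settings, replicate and slide blocks, and each array left out. Protein sequences were not used here, so domains and finger numbers were not counted.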

Additional observations from a re-analysis of the deposited data

How the results depend on the processing

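Of all genes, 4273 were higher and 3883 lower in the main analysis, and of the zinc finger genes 85 and 22. With normexp these counts were 1276 and 1402 for all genes and 35 and 6 for the zinc finger genes, and with slide as a block 1431 and 1546, and 31 and 6. Leaving out 1 array at a time gave 1431 to 6838 higher and 1546 to 6210 lower genes, and 31 to 117 higher and 6 to 42 lower zinc finger genes. The lowest counts came without input replicate 1 and the highest without a FLAG IP array. Without the filter on dim probes 13 zinc finger genes were lower. Taken singly, 134 of their 335 tested probes were higher, and the share over all probes is not given. With the replicate block 87 were higher and 20 lower, so pairing by number changed neither count by over 1.5 times. The other settings stayed within 1.5 times, and the causes were not tested.

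Of 134 genes followed across the settings, 6 changed sign with a call on at least one side: Zfp386 with the mean of its probes (-0.57, adjusted p = 0.0369), Zfp644 (0.86) and Chd4 (-0.71) in the same setting, Zfp91 with 1 FLAG IP array left out (-0.39 without replicate 2 to 0.76 without replicate 1), and Zfp57 (0.67) and Atrx (0.12) with normexp. In 24 genes, some of them the same, the sign changed with no call on either side, among them Zfp445, Zfp428, Zfp207, Zfp106 and Zfp219. The median of all genes was 0.07 on the log2 scale in the main analysis, 0.38 with normexp and 0.55 without the filter on dim probes. The median of the zinc finger genes exceeded it by 0.09 with normexp and by 0.17 without the filter. Over genes detected on all 4 arrays the excess in these settings was 0.40 and 0.54. There were 2 arrays per group, and the dimmest of them set which genes count as detected.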

Other observations

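In the authors' deposited table the ratio of FLAG IP to input had a median of 1.52 over the probes that stand for the 188 zinc finger genes, and 124 of the 188 were above 1. In the authors' deposited table the median ratio of the probes that stand for the tested genes was 0.965, and over all probes of the table it was 1.53, close to that of the zinc finger genes. The scaling of that ratio is unknown.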
